A study of Sus scrofa with 6 samples.

Results

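The salt-inducible kinases SIK1, SIK2 and SIK3 and the CREB coactivators CRTC1, CRTC2 and CRTC3 were examined in the pressure-overloaded minipig ventricle, together with the transcription factors CREB1 and CREM and the class IIa histone deacetylases HDAC4 and HDAC5. These 10 genes were picked because SIK1 was much lower after aortic constriction, and all 10 were found among the 13288 genes of the deposited table. The table names 9 of them. The row of SIK1 carries no symbol there, and it was identified through its Ensembl identifier (ENSSSCG00000035037), whose position overlaps that of SIK1 in RefSeq. RNA came from the ventricles of male Tibetan minipigs, taken at week 12 after surgery. The sham group (n = 3) had the chest opened without constriction. In the group with descending aortic constriction (DAC, n = 3), sutures were tightened around the descending aorta to load the left ventricle. Neither the age of the animals nor which ventricle was sequenced is given in the sources used here. Each library comes from 1 minipig, and the libraries are called sham replicates 1, 2 and 3 and DAC replicates 4, 5 and 6 after their labels.

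The SIKs are serine/threonine kinases of the AMPK-related family, switched on by the kinase LKB1. They phosphorylate CRTCs and class IIa histone deacetylases, which are then held in the cytoplasm by 14-3-3 proteins. When cAMP rises, protein kinase A phosphorylates the SIKs and restrains them, and the dephosphorylated CRTCs enter the nucleus and join CREB on its target genes. SIK1 is itself such a target, so its transcript can respond to cAMP signals. Class IIa histone deacetylases repress MEF2 factors, which drive hypertrophic genes in cardiomyocytes.

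Levels are in FPKM, fragments scaled by transcript length and by the mapped fragments of the library, so they can be compared between genes. Differences between the groups are DAC minus sham in mean log2(FPKM + 1), with the standard error from limma. The added 1 makes the change of low genes look smaller than it is. A gene passed the study's threshold when its unadjusted P from limma was under 0.05. Of the 11029 genes that reached 1 FPKM in 3 or more of the 6 samples, 939 passed (8.51%), 358 of them higher (3.25%) and 581 lower (5.27%) in the DAC group. After Benjamini-Hochberg adjustment, limma left 0 genes under 0.05, and the smallest adjusted P was 0.106. All 10 members were tested. The summed FPKM of a library was between 281377 and 308771, and FPKM keeps no read depth, so how many reads lie behind a level is unknown. DAC replicate 5 stood apart in its mitochondrially encoded genes, which held 32.8% of its FPKM against 24.0% to 27.2% in the other libraries.

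Among the tissue markers, the ventricular light chain MYL2 was between 4149 and 5033 FPKM. The atrial genes MYL4 and SLN were together between 1.49 and 4.80 FPKM in the sham samples and at 10.7, 1.71 and 27.4 FPKM in DAC replicates 4, 5 and 6, while MYL7 and PLN are not listed. The 9 listed ventricular cardiomyocyte markers summed to between 14900 and 15510 FPKM in the sham group and between 14090 and 16980 FPKM in the DAC group. The 7 fibroblast markers summed to between 479 and 553 FPKM in the sham group and between 683 and 776 FPKM in the DAC group, and 4 of them (COL1A1, COL1A2, COL3A1 and LUM) passed the threshold as higher. The fibroblast markers PDGFRA (log2 difference 0.24), DCN (-0.01) and TCF21 (-0.02) did not pass. Summed endothelial, smooth muscle, leukocyte, red blood cell and adipocyte markers overlapped between the groups, but single markers passed the threshold. The endothelial KDR and EMCN were higher (log2 differences 0.60 and 0.39) and VWF lower (-0.49), the smooth muscle gene CNN1 was higher (0.60), and the macrophage gene CD163 (-0.43) and the cardiomyocyte gene RYR2 (-0.41) were lower. ADIPOQ was under 1 FPKM in every library, as were CD3E and ALAS2. In such bulk tissue, fewer cells of a type and less RNA per cell cannot be told apart, and the part of these markers in the results was not tested.

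SIK1 was the most abundant member in the sham ventricle. Over all 6 samples it had the widest spread of the members, which includes the difference between the groups. Within the sham group its SD was 18.1% of its mean, less than for CREM (47.2%) and CREB1 (22.3%). Within the DAC group it was 53.6%, the highest of the members. SIK1 (chr13:206454718-206465807, minus strand, susScr11) stood at 41.0, 32.1 and 29.1 FPKM in the 3 sham samples. In the DAC samples it stood at 12.6, 4.86 and 17.0 FPKM. The groups did not overlap: the highest DAC sample lay below the lowest sham sample, and DAC replicate 5 was the lowest of all. The group means were 34.1 ± 6.17 FPKM (SD, n = 3) and 11.5 ± 6.17 FPKM (SD, n = 3), a 2.96-fold lower mean in the DAC group. The log2 difference was -1.62 (standard error 0.39), and 7 of the 11029 genes, SIK1 included, had a difference this low or lower. Because this contrast chose SIK1, these values describe it and no test is given. Without DAC replicate 5 the log2 difference of SIK1 was -1.15 (standard error 0.19), and with the mitochondrially encoded genes left out and the rest rescaled it was -1.58.

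**Figure D1:**
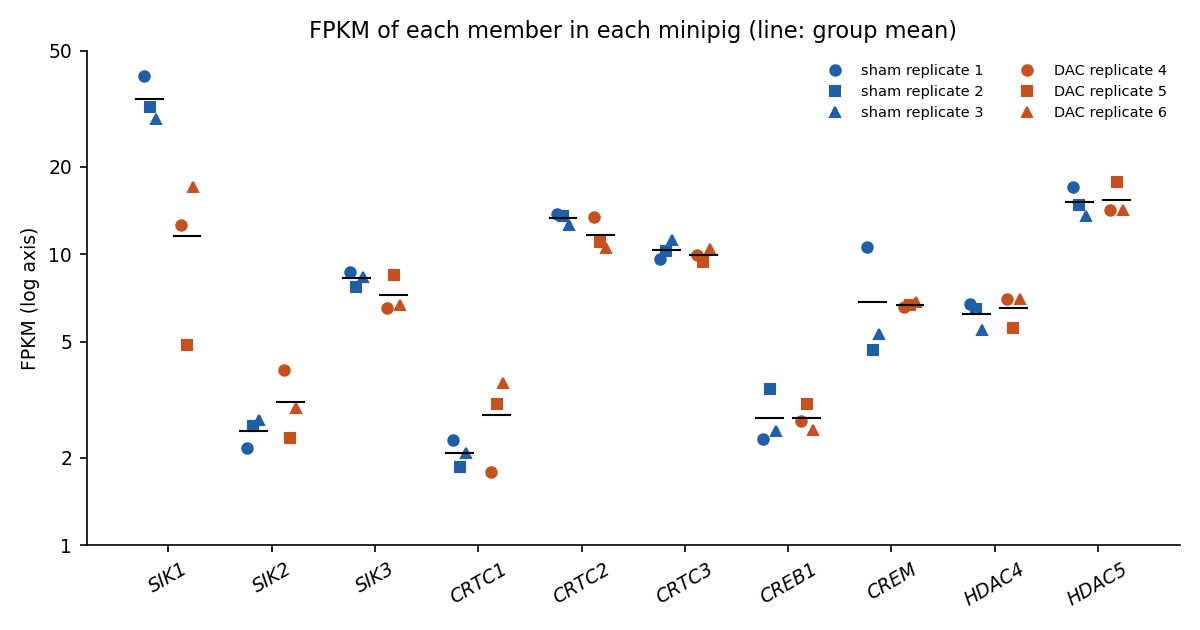
FPKM (log axis) of the 10 genes in each of the 6 minipigs, sham in blue and DAC in orange, with symbols for single animals and a line at each group mean. SIK1 separates the groups, from 29.1 to 41.0 FPKM in sham and from 4.86 to 17.0 FPKM in DAC, whereas the groups overlap for each of the other 9 genes.

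For SIK2 and SIK3 the groups overlapped. SIK3 (ENSSSCG00000015071, chr9:44223227-44513822), a broadly expressed SIK, was at 8.67, 7.73 and 8.36 FPKM in sham and at 6.52, 8.48 and 6.69 FPKM in DAC. Its values in DAC replicates 4 and 6 lay below every sham sample, but that in DAC replicate 5 did not, so the groups overlapped. The log2 difference of SIK3 was -0.18 (standard error 0.12), or -0.28 without DAC replicate 5, when SIK3 passed the threshold and 8.66% of all genes did. SIK2 (ENSSSCG00000032941, chr9:39368598-39483515), known from adipose tissue, was at 2.15, 2.58 and 2.69 FPKM in sham and at 3.99, 2.33 and 2.97 FPKM in DAC. Here DAC replicate 4 was the highest and DAC replicate 5 fell inside the sham range, with a log2 difference of 0.22 (standard error 0.17) that was 0.070 without DAC replicate 4. The SIK2 gene overlaps PPP2R1B on the opposite strand, which was at 1.43, 1.27 and 0.970 FPKM in sham and at 2.11, 1.87 and 1.90 FPKM in DAC. Whether counting used the strand is not given in the sources used here, so reads from the shared stretch cannot be assigned. The same holds for SIK3 with PAFAH1B2, CREB1 with METTL21A and HDAC5 with G6PC3, each on opposite strands.

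Summed over the family, SIK transcripts came to 51.8, 42.5 and 40.2 FPKM in sham and to 23.2, 15.7 and 26.7 FPKM in DAC. SIK2 and SIK3 together stayed within 9.66 to 11.0 FPKM over all 6 samples, so nearly all of this difference lay in SIK1. The share of SIK1 in the family was 75.8% ± 3.30 (SD, n = 3) in sham and 49.8% ± 16.9 (SD, n = 3) in DAC. In DAC replicate 5 it was 31.0%, and SIK3 was then the largest part with 54.1%. In each of the other 5 libraries SIK1 was the largest part. As the shares contain SIK1, they restate its drop and are given without a test.

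**Figure D2:**
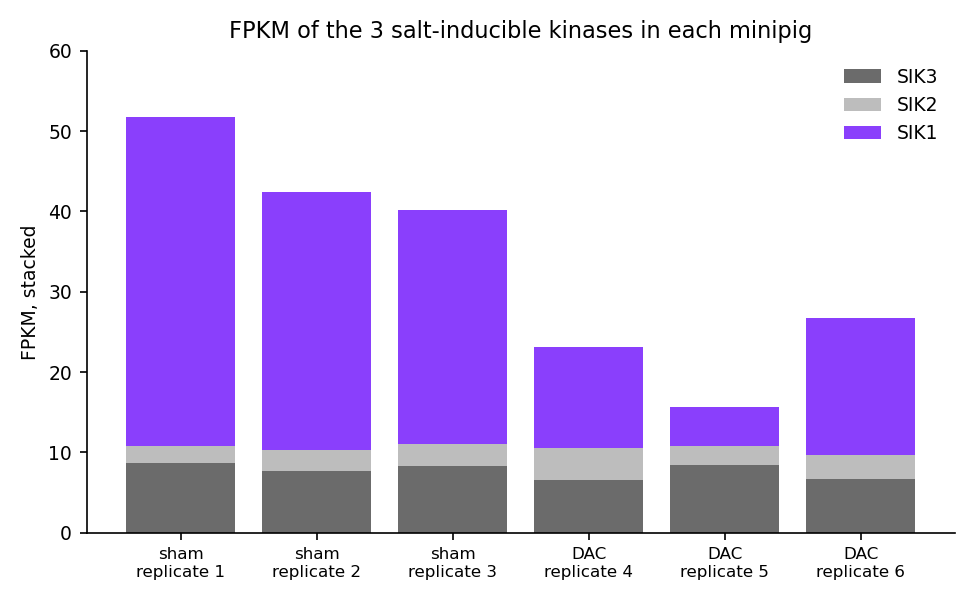
Stacked FPKM of SIK3 (dark grey), SIK2 (light grey) and SIK1 (purple) in each minipig, 1 bar per animal. The grey part stays between 9.66 and 11.0 FPKM, while the purple SIK1 part is 29.1 FPKM or more in each sham bar and 17.0 FPKM or less in each DAC bar.

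The CRTCs, which the SIKs phosphorylate, were dominated by CRTC2 and CRTC3. CRTC2 (ENSSSCG00000006567, chr4:95734299-95745630), the coactivator best known from hepatic gluconeogenesis, was at 13.8, 13.5 and 12.6 FPKM in sham and at 13.4, 11.0 and 10.5 FPKM in DAC. DAC replicates 5 and 6 lay below all sham samples and DAC replicate 4 lay among them, for a log2 difference of -0.18 (standard error 0.12). CRTC3 (ENSSSCG00000034090, chr7:53146403-53255977) varied least of all members, from 9.38 to 11.2 FPKM, with overlapping groups and a log2 difference of -0.05 (standard error 0.10). CRTC1 (ENSSSCG00000013915, chr2:59069334-59157187), the member best known from neurons, was at 2.30, 1.86 and 2.07 FPKM in sham and at 1.78, 3.05 and 3.60 FPKM in DAC. DAC replicates 5 and 6 were above every sham sample and DAC replicate 4 was below every one, so its log2 difference of 0.28 (standard error 0.19) became 0.49 without DAC replicate 4 and 0.13 without DAC replicate 6. DAC replicate 4 thus differed from the other DAC libraries in both CRTC1 and CRTC2. Without it, these 2 genes passed the threshold, CRTC1 as higher and CRTC2 as lower, when 7.52% of all genes passed. The summed CRTC level was between 25.6 and 25.8 FPKM in sham and between 23.4 and 25.1 FPKM in DAC. Set against the summed SIK level, it gave a ratio of 0.580 ± 0.0761 (SD, n = 3) in sham and 1.17 ± 0.297 (SD, n = 3) in DAC, a difference that comes mainly from SIK1 in the denominator.

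CREB1 and CREM bind the cAMP response element, CREB1 as the activator that CRTCs join and CREM in forms that activate or, as the early repressor ICER, repress. CREB1 (ENSSSCG00000034395, chr15:110697408-110771755) was at 2.32, 3.44 and 2.46 FPKM in sham and at 2.67, 3.06 and 2.48 FPKM in DAC. Both group means were 2.74 FPKM, and the sign of its difference changed with the minipig left out. CREM (ENSSSCG00000011106, chr10:57829518-57895610) was at 10.6, 4.69 and 5.32 FPKM in sham and at 6.58, 6.70 and 6.84 FPKM in DAC. Sham replicate 1 held the highest CREM value, the other sham samples the lowest, and the DAC samples lay close together between them. The log2 difference of CREM was 0.05 (standard error 0.26). It was 0.36 without sham replicate 1, when CREM passed the threshold together with SIK1 and 5.44% of all genes did, and -0.15 without sham replicate 2. The table gives 1 value per gene, so ICER and the longer CREM forms cannot be told apart.

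HDAC4 and HDAC5 are the class IIa deacetylases that shuttle out of the nucleus once kinases of this kind phosphorylate them. HDAC5 (ENSSSCG00000017366, chr12:19077997-19123140) was the second most abundant member by its median, at 17.0, 14.8 and 13.5 FPKM in sham and at 14.2, 17.7 and 14.1 FPKM in DAC. HDAC4 (ENSSSCG00000024777, chr15:138381627-138614301) was at 6.76, 6.48 and 5.48 FPKM in sham and at 6.99, 5.56 and 7.01 FPKM in DAC. The groups overlapped for both genes. The log2 differences were 0.02 (standard error 0.14) for HDAC5 and 0.05 (standard error 0.13) for HDAC4, and either sign occurred when single minipigs were left out. HDAC5 exceeded HDAC4 in each library, by a ratio between 2.02 and 3.19.

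**Figure D3:**
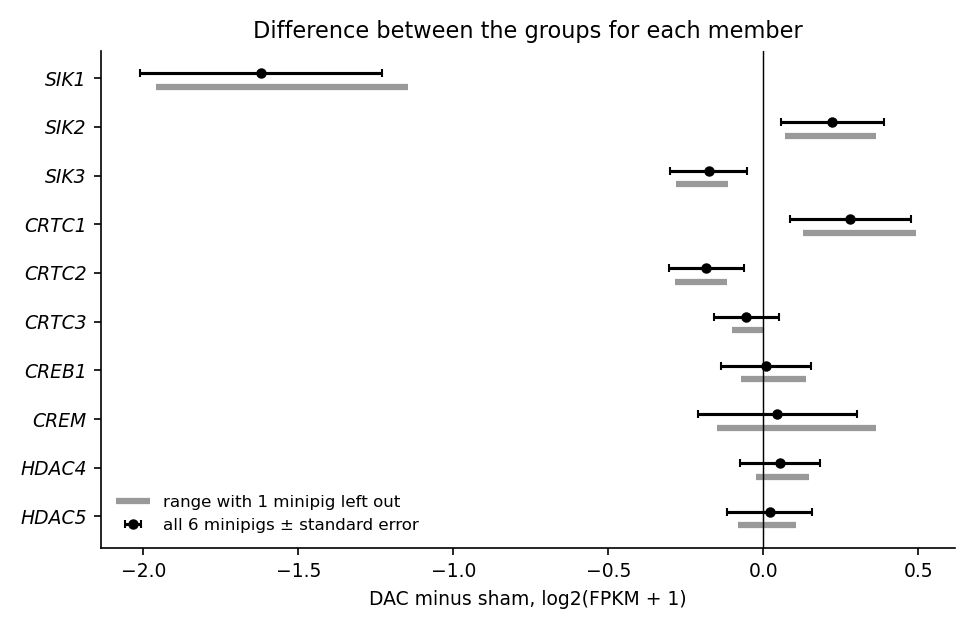
Difference between the groups in mean log2(FPKM + 1), DAC minus sham, for each of the 10 genes, as a black point with its standard error. The grey bar is the range over the 6 fits that each leave out 1 minipig. SIK1 lies at -1.62 with a range from -1.96 to -1.15, and the other 9 genes lie between -0.18 and 0.28.

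Of the 10 members, 1 (SIK1) passed the threshold and had groups without overlap, where 8.51% of all genes tested passed, 14.9% had groups without overlap and 8.91% had every DAC sample below every sham sample. As SIK1 was chosen by this contrast, nothing is read from that count. Among the other 9 members, 0 passed limma's unadjusted threshold. Their log2 differences ran from -0.18 to 0.28 with a median of 0.02, beside a median of -0.02 over all genes tested. SIK2 and CRTC1 were higher, and SIK3, CRTC2 and CRTC3 lower, in the mean of the DAC group in each of the 6 fits that left out 1 minipig, while CREB1, CREM, HDAC4 and HDAC5 took either sign. These fits share most of their samples, and the log2 difference of CRTC3 was only -0.0020 without sham replicate 3.

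By the median over the 6 samples, the order of levels was SIK1 (23.1 FPKM), HDAC5 (14.5), CRTC2 (13.01), CRTC3 (10.1), SIK3 (8.05), CREM (6.64), HDAC4 (6.62), SIK2 (2.63), CREB1 (2.58) and CRTC1 (2.18). The ranges were apart only between CRTC3 and SIK3 and between HDAC4 and SIK2. The other neighbours overlapped, although HDAC5 was above CRTC2 and CRTC2 above CRTC3 within each of the 6 libraries. SIK1 was above HDAC5 in 4 of the 6 libraries, and not in DAC replicates 4 and 5. The level of SIK1 exceeded that of 85.3% of the genes tested, and that of CRTC1 exceeded 18.6%.

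The profile of SIK1 over the 6 libraries was compared with that of every tested gene with a symbol, as the root-mean-square difference of log2(FPKM + 1) after each gene's mean was subtracted. On this scale a flat gene is 0.96 away from SIK1. The closest were MLPH, a melanophilin linked to vesicle transport (0.31), CYP4F8, a cytochrome P450 (0.39), APOLD1, an endothelial early response gene (0.41), HJV, the iron regulator hemojuvelin (0.42), and S100A1, a calcium-binding protein of cardiomyocytes (0.44). MLPH was at 41.0, 41.3 and 29.8 FPKM in sham and at 23.6, 8.57 and 22.0 FPKM in DAC. S100A1 was at 598, 594 and 664 FPKM in sham and at 418, 188 and 535 FPKM in DAC. DAC replicate 5 was the lowest library for MLPH, CYP4F8, HJV and S100A1, as for SIK1, whereas APOLD1 was lowest in DAC replicate 4 (3.40 FPKM, against 3.60 FPKM in DAC replicate 5). Among all genes tested, DAC replicate 5 was the lowest library for 23.6%, the largest share of the 6 libraries. Without DAC replicate 5, the log2 difference of MLPH went from -1.11 to -0.68, that of CYP4F8 from -0.96 to -0.51, that of HJV from -1.71 to -1.12 and that of S100A1 from -0.83 to -0.38. That of APOLD1 moved less, from -1.33 to -1.17. These genes were selected for this likeness over 6 libraries, so their differences are not independent of that of SIK1.

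**Figure D4:**
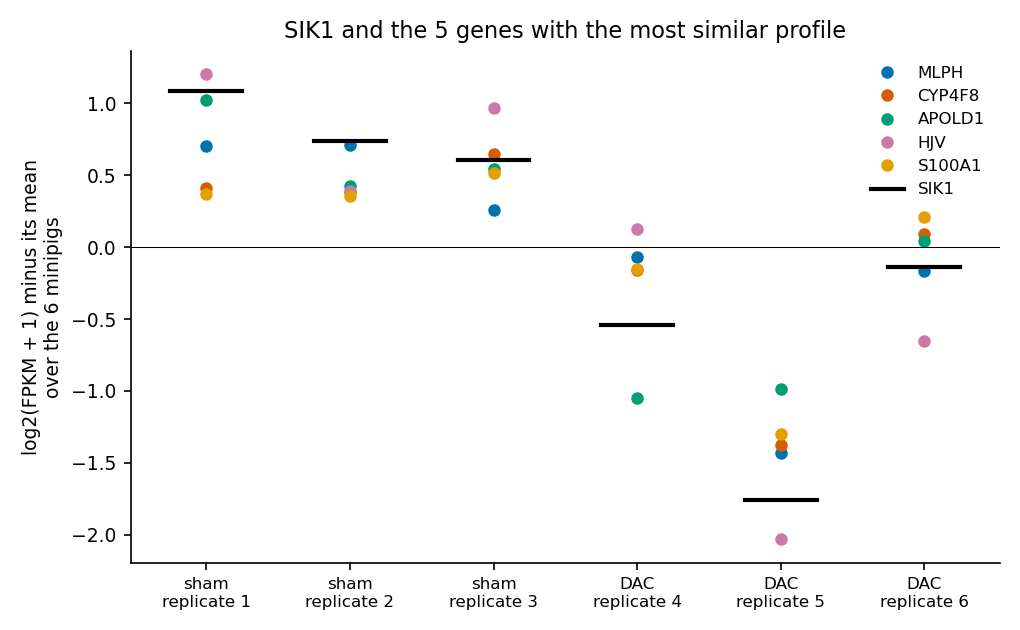
log2(FPKM + 1) minus its mean over the 6 minipigs for SIK1 (black bars) and for the 5 genes with the smallest root-mean-square difference from it (coloured points), by minipig. All 6 genes lie above 0 in the sham libraries, and SIK1, MLPH, CYP4F8, HJV and S100A1 are lowest in DAC replicate 5.

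The other genes of the pathway were taken from lists of kinases, factors and targets, and 82 of them were tested. Of these, 8 were higher and 3 lower in the DAC group at an unadjusted limma P under 0.05, which is 11 of 82 where 8.51% of all genes passed. Their median log2 difference was -0.005, against -0.02 over all genes. Leaving out sham replicate 1 gave 7 genes, where 5.44% of all genes passed. Leaving out sham replicate 3 gave 5, where 5.72% passed, and leaving out DAC replicate 6 gave 4, where 9.07% passed.

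Upstream of the SIKs, 0 of the 5 genes of the LKB1 complex passed limma's unadjusted threshold. STK11, which encodes LKB1, had the smallest P, and it was at 58.8, 57.5 and 53.0 FPKM in sham and at 51.9, 46.5 and 44.4 FPKM in DAC, a log2 difference of -0.24 (adjusted P = 0.592 from limma). Its groups did not overlap. Among 8 tested AMPK and AMPK-related kinases, the SNF-related kinase SNRK was lower, with 12.9, 14.1 and 11.4 FPKM in sham and 5.84, 11.1 and 8.16 FPKM in DAC (log2 difference -0.59, adjusted P = 0.553 from limma). The other 7 of these kinases did not pass. Of 9 genes for protein kinase A subunits and inhibitors, the inhibitor PKIB was lower at 1.16, 2.34 and 1.48 FPKM in sham and 0.896, 0.574 and 1.13 FPKM in DAC (log2 difference -0.50, adjusted P = 0.581 from limma). The difference of PKIB, a low gene, was -0.86 with a pseudocount of 0.1 and -0.32 without sham replicate 2, and that of SNRK was -0.38 without DAC replicate 4. SNRK and PKIB each kept an unadjusted P under 0.05 in 2 of the 6 fits without 1 minipig.

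Beside CREB1 and CREM, 0 of 13 CREB/ATF factors and coactivators passed limma's unadjusted threshold. The stress factor ATF4 had the smallest P, with 37.7, 30.9 and 40.7 FPKM in sham and 26.8, 32.8 and 27.8 FPKM in DAC (log2 difference -0.31, adjusted P = 0.595 from limma). The acetyltransferases EP300 and CREBBP, which CREB recruits, had log2 differences of 0.02 and 0.05. EP300 was between 23.8 and 24.6 FPKM in all 6 samples.

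Around the deacetylases, 1 of 9 genes for further class IIa deacetylases, their corepressors and MEF2 factors passed. MEF2A, a MEF2 factor of muscle, was at 30.3, 30.2 and 28.8 FPKM in sham and at 40.7, 33.3 and 36.2 FPKM in DAC (log2 difference 0.29, adjusted P = 0.563 from limma), and all DAC samples were above all sham samples. MEF2C and MEF2D, also expressed in the ventricle, had log2 differences of -0.03 and -0.10. Of 14 genes for calcineurin, CaM kinases and protein kinase D, 1 was higher and 1 was lower. PRKD1, a protein kinase D that phosphorylates class IIa deacetylases, was at 2.36, 3.38 and 2.67 FPKM in sham and at 4.34, 3.89 and 4.23 FPKM in DAC (log2 difference 0.45, adjusted P = 0.505 from limma). It passed in each of the 6 fits without 1 minipig. CAMK2B, a CaM kinase II subunit, was at 21.9, 17.2 and 15.8 FPKM in sham and at 13.98, 15.4 and 9.97 FPKM in DAC (log2 difference -0.46, adjusted P = 0.585 from limma). Of 4 tested 14-3-3 genes, YWHAZ was higher, at 33.6, 42.2 and 38.0 FPKM in sham and 49.5, 44.2 and 53.7 FPKM in DAC (log2 difference 0.37, adjusted P = 0.548 from limma). The difference of CAMK2B was -0.28 without DAC replicate 6. MEF2A passed in 1 of the 6 fits without 1 minipig, and CAMK2B and YWHAZ in 2 each.

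Among 17 tested CREB target genes other than SIK1 and CREM, 4 were higher and 0 were lower in the DAC group by limma's unadjusted threshold, where 3.25% of all genes were higher and 5.27% lower. Their median log2 difference was 0.08, against -0.02 over all genes. NR4A3, an orphan nuclear receptor and early response gene, showed the largest difference of the list, from 28.2, 17.0 and 12.6 FPKM in sham to 37.4, 53.4 and 70.9 FPKM in DAC (log2 difference 1.47, standard error 0.32, adjusted P = 0.428 from limma). It was higher in all 3 DAC samples than in any sham sample and passed in each fit without 1 minipig. PDE4D, a cAMP phosphodiesterase, was at 13.98, 12.2 and 12.1 FPKM in sham and at 14.6, 18.2 and 18.3 FPKM in DAC (log2 difference 0.39, adjusted P = 0.522 from limma). NFIL3, a bZIP repressor, was at 24.9, 14.5 and 13.3 FPKM in sham and at 27.7, 25.4 and 24.8 FPKM in DAC (log2 difference 0.59, adjusted P = 0.564 from limma). The fourth gene that passed, named after its values were seen, was PPARGC1A, the coactivator of mitochondrial biogenesis, with 24.4, 25.6 and 20.1 FPKM in sham and 34.0, 25.3 and 46.7 FPKM in DAC (log2 difference 0.54, adjusted P = 0.584 from limma). The groups overlapped for NFIL3 and PPARGC1A. In the 6 fits without 1 minipig, PDE4D passed in 2, NFIL3 in 1, and PPARGC1A in 1, that without DAC replicate 5. With sham replicate 2, sham replicate 3 or DAC replicate 6 left out, 1 gene of the list passed each time. In these fits 9.33%, 5.72% and 9.07% of all genes passed. Without DAC replicate 4 the list had 2 higher and 3 lower genes, where 7.52% of all genes passed.

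Other early response genes of the list, EGR1, FOS and NR4A1, chosen after their values were seen, did not pass the test. EGR1 was at 59.2, 20.4 and 11.1 FPKM in sham and at 27.2, 18.5 and 27.0 FPKM in DAC, and FOS was at 4.01, 0.360 and 1.04 FPKM in sham and at 1.10, 0.748 and 0.889 FPKM in DAC. NR4A1 was at 51.9, 22.1 and 14.4 FPKM in sham and at 39.9, 21.0 and 47.3 FPKM in DAC. For EGR1, FOS and NR4A1, sham replicate 1 held the highest value of the 6 libraries, as it did for SIK1, SIK3, CRTC2 and CREM. NR4A3 and DUSP1 were highest in DAC replicate 6, ATF3 and NR4A2 in DAC replicate 4 and CCN1 in sham replicate 3. Sham replicate 1 was the highest of the 6 libraries for 5 of the 17 tested targets (29.4%) and for 19.2% of all genes tested. It was the highest sham sample for 12 of the 17 tested targets (70.6%), where it was the highest sham sample for 34.3% of all genes tested. Among the 10 members, it was the highest sham sample for 7 (70%). Without sham replicate 1, the log2 difference of SIK1 was -1.48, and NR4A1 passed the threshold. SIK1 was lower and NR4A3 higher in the DAC group, each with groups that did not overlap, as in 14.9% of all genes tested. SIK1 was chosen by this contrast and NR4A3 was named for its P, so nothing is read from their opposite directions.

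**Figure D5:**
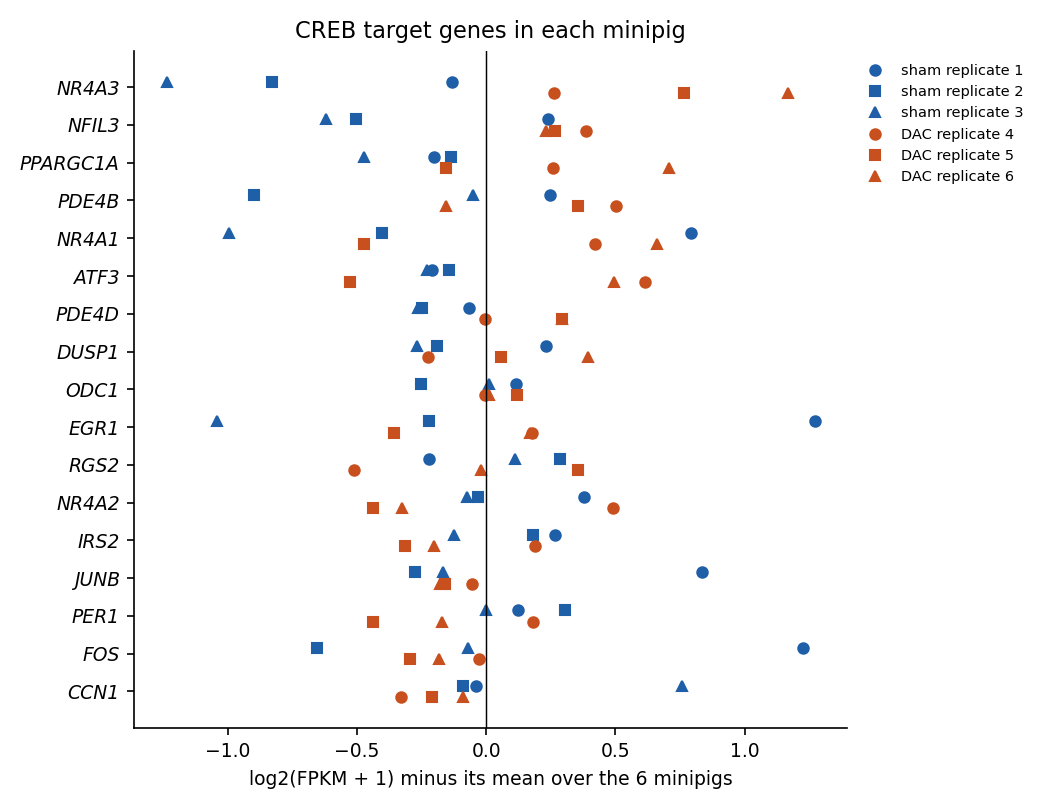
log2(FPKM + 1) minus its mean over the 6 minipigs for the 17 tested CREB target genes, ordered by the difference between the groups, with sham in blue and DAC in orange and a symbol for each animal. NR4A3, at the top, separates the groups, and sham replicate 1 (blue circle) lies far to the right of the other sham samples for EGR1, FOS, JUNB and NR4A1.

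Of 5 genes tied to the fetal cardiac programme, on which class IIa deacetylases act through MEF2 and other factors, 3 were listed and 1 passed. NPPB, the gene of brain natriuretic peptide, was at 15.6, 43.9 and 43.4 FPKM in sham and at 80.6, 93.3 and 106.6 FPKM in DAC (log2 difference 1.55, standard error 0.38, adjusted P = 0.482 from limma). The skeletal actin ACTA1 was at 1882, 1822 and 2278 FPKM in sham and at 1518, 2405 and 1643 FPKM in DAC, with a log2 difference of -0.13 (adjusted P = 0.870 from limma). The beta myosin heavy chain MYH7 was between 1781 and 1935 FPKM in all samples, with a log2 difference of -0.04 (adjusted P = 0.920 from limma). NPPA and MYH6 are not listed in the table.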

How the data were processed

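Ventricular RNA of 3 sham and 3 DAC minipigs went into NEBNext Ultra libraries, which were read from both ends on an Illumina HiSeq. The authors deposited FPKM, 1 column per minipig, with none pooled. The submitters' processing notes name HISAT2 and the build susScr11, and the quantification program is not given in the sources used here. The highest sample of a listed gene never fell below 0.500 FPKM. Symbols came from the table and, for 520 genes without one, SIK1 included, from a table of Ensembl identifiers. No steps of whole reads were seen: in any pair of samples, 1 log2 ratio was shared by at most 6 of 4703 or more low genes, so precision rests on the spread between minipigs.

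Genes reaching 1 FPKM in 3 or more of the 6 samples were compared as log2(FPKM + 1), a pseudocount of 1, with limma 3.58.1 in R 4.3.3, moderated with a variance trend. P values were two-sided and adjusted over all 11029 genes by Benjamini-Hochberg. The steps were tested on simulated data. Figures used Python 3.11.15 and matplotlib 3.10.9. An exact permutation test of 3 against 3 cannot go below 0.10. No batch is named in the labels.

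The members and lists were chosen with earlier results of these data known. Named genes are the members, up to 3 genes past the threshold with the smallest P in each list (otherwise the 1 with the smallest P), all fetal genes, and the 5 profiles nearest to SIK1. Genes given in addition to that rule (PPARGC1A, EP300, CREBBP, MEF2C, MEF2D, EGR1, FOS, JUNB, NR4A1, NR4A2, DUSP1, ATF3, CCN1 and the single marker genes) were chosen after their values were seen. The alternatives tried were a minimum of 5 FPKM, no filter, a pseudocount of 0.1, median scaling, quantile normalization, mitochondrially encoded genes left out, each gene's own variance, sample weights, and each sample left out. Promoter motifs were not analysed here.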

Additional observations from a re-analysis of the deposited data

How the results depend on the processing

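With 1 sample left out in turn, the log2 difference of SIK1 was between -1.96 and -1.15, the number of members past the threshold between 1 and 3, that of pathway genes between 4 and 12, that of CREB target genes between 1 and 5, and that of all genes between 600 and 1029. The lowest count of all genes was that without sham replicate 1. Over the other alternatives SIK1 was between -1.72 and -1.51. A minimum of 5 FPKM gave 579 genes past the threshold, 165 higher and 414 lower, of 6271 tested. With each gene's own variance, 2 CREB target genes passed, where 8.06% of all genes did. The split of all genes moved from 358 higher and 581 lower to 429 and 479 after median scaling, to 418 and 469 after quantile normalization, and to 502 and 408 with mitochondrially encoded genes left out, where the log2 difference of MYH7 was 0.0038. That of ACTA1 was between -0.33, without DAC replicate 5, and 0.0024, without DAC replicate 4. The difference of each member other than SIK1 moved by less than 1 SD between replicates in all 123 fits. This is no measure of stability. Leaving out 1 of 3 replicates cannot move a difference that far, and some of the other alternatives leave it unchanged. With 1 sample left out, the difference of CREM ran from -0.15 to 0.36. Of 264 fits of the other named genes, 44 lost and 11 gained an unadjusted P under 0.05, and the cause was not tested. NR4A3, NPPB and APOLD1 passed in all 14 alternatives, and PRKD1 in all 13 that tested it. No paired analysis was run, because each minipig was in only 1 group and the sources used here describe no matching between groups. Depth is unknown, so counting error at low genes such as CRTC1, CREB1 and PKIB could not be given.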
